A study of Gorilla gorilla with 12 samples.

Results

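The proteasome genes described here are the 35 genes whose array annotation gave a single symbol starting with PSMA, PSMB, PSMC, PSMD or PSME, out of 8226 genes so named on the array. They were chosen by symbol alone, without the immunoproteasome genes PSMB8 and PSMB9, and each was read from the probe set with the highest mean over the standard arrays among its 1 or 2 probe sets. By textbook composition they comprised 6 alpha and 8 beta subunits of the core particle, 8 subunits of the base, 6 of the lid, 3 activators and 3 assembly chaperones. The remaining gene, PSMC3IP, is no proteasome subunit: it codes for a protein of meiotic recombination and was kept apart from the class values. Counts over all 35 genes include it. All 35 had a mean level above the filter on dim probe sets.

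The proteasome is the protease complex that degrades ubiquitin-tagged proteins in the cytosol and nucleus. Its core particle is a barrel of alpha and beta rings in which the beta subunits PSMB5, PSMB6 and PSMB7 carry the peptidase sites. The base, with a ring of ATPases, unfolds substrates, and the lid removes their ubiquitin chains. Subunits are made in near-fixed proportions in most cells, and transcription factors such as NFE2L1 are known to raise them together when degradation falls short.

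RNA came from fibroblast lines of gorillas, connective tissue cells grown in culture, with 1 array per culture. The 11 lines harvested under standard conditions came from donors labelled normal, 6 female and 5 male. The lines labelled female 1 to 6 came from donors of 19, 19, 35, 26, 30 and 2 years, and those labelled male 1 to 5 from donors of 19, 26, 24, 18 and 3 years. Male line 2, of the donor aged 26 years, was also grown a second time and harvested at 50% confluence. Lines are numbered here in order of deposition, and neither the density of the standard harvest nor the body site of the biopsies is given in the sources used here.

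The deposited values are intensities with a floor of 100, and the share of probe sets at that floor was 40.1% to 49.2% per array. All 10 fibroblast markers on the array were above the floor in all 12 arrays, and their summed intensity ran from 75814 to 125905 over the standard arrays. Of the markers of other cell types, PTPRC of leukocytes, KRT5, KRT14 and DSP of keratinocytes, VWF of endothelium and TYRP1 of melanocytes were at the floor throughout. Others were not: 2 of 4 leukocyte markers and 1 of 3 melanocyte markers were above it on all 12 arrays, with CD14 up to 1673 and PMEL up to 433, and TEK of endothelium reached 327. Summed over the standard arrays, the leukocyte list ran from 791 to 2672, the melanocyte list from 306 to 747, the endothelial list from 400 to 627 and the keratinocyte list from 500 to 616. The list of 4 muscle markers ran from 400 to 940, with MYOG up to 550. Of those 4 genes, 0 were at the floor on all 12 arrays and 0 were above it on all 12. The array labelled female 3 had 2595 for the Y-linked gene RPS4Y1, against 100 to 115 in the other arrays labelled female and 2662 to 4363 in the male ones, so its label is in doubt. Probes were designed on human sequence, so a base difference under a probe can lower a signal, and the level of 1 gene is not set against that of another.

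Most proteasome genes differed less between the lines than the median gene tested. The SD of log2 intensity over the 11 standard arrays had a median of 0.29 over the 35 genes, against 0.40 over the 5486 genes tested, and 28 of the 35 lay below that median of all genes. Among genes of like brightness the gap was smaller: the other 1530 genes between the quartiles of the proteasome genes' mean level had a median SD of 0.37, and the 17 proteasome genes of that range 0.30. All 8 beta subunits, all 8 base subunits and all 3 assembly chaperones were below the median of all genes. The alpha and lid subunits were more mixed, with 4 of 6 below it in each, and 1 of the 3 activators was.

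**Figure D1:**
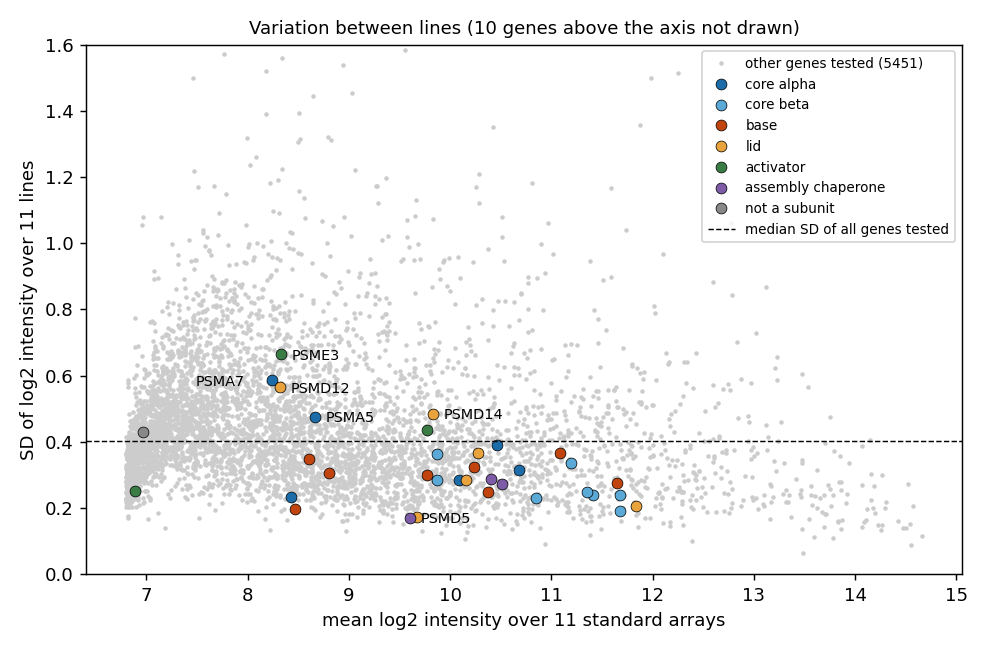
SD of log2 intensity over the 11 standard lines (vertical axis, log2 units) against mean log2 intensity (horizontal axis) for the genes tested, with the proteasome genes coloured by class and 10 genes above the axis not drawn. Most coloured points sit under the dashed line at the median SD of all genes, 0.40, and PSME3, PSMA7, PSMD12, PSMD14 and PSMA5 stand above it.

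The catalytic subunits illustrate this smaller spread. PSMB6, the caspase-like subunit, had intensities from 2720 in female 6 through a median of 3148 to 4619 in male 1. Its SD of 0.19 was at percentile 2.55 of all genes tested. PSMB5, the chymotrypsin-like subunit that is the main target of proteasome inhibitor drugs, had 1274 in male 3, a median of 1928 and 2163 in female 5. The other 10 lines stayed between 1569 and 2163, so male 3 alone was low. PSMB7, the trypsin-like subunit, had 665 in male 2, a median of 898 and 1284 in male 1.

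PSMB10, which takes the place of PSMB7 in the immunoproteasome, varied more than these, from 623 in female 5 through a median of 878 to 1519 in female 3. Its highest line was not the highest for the other immunoproteasome genes. PSMB8 and PSMB9, which are outside the set by its rule, had their highest intensities, 552 and 1644, in male 1, and their lowest, 156 and 556, in male 2.

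**Figure D2:**
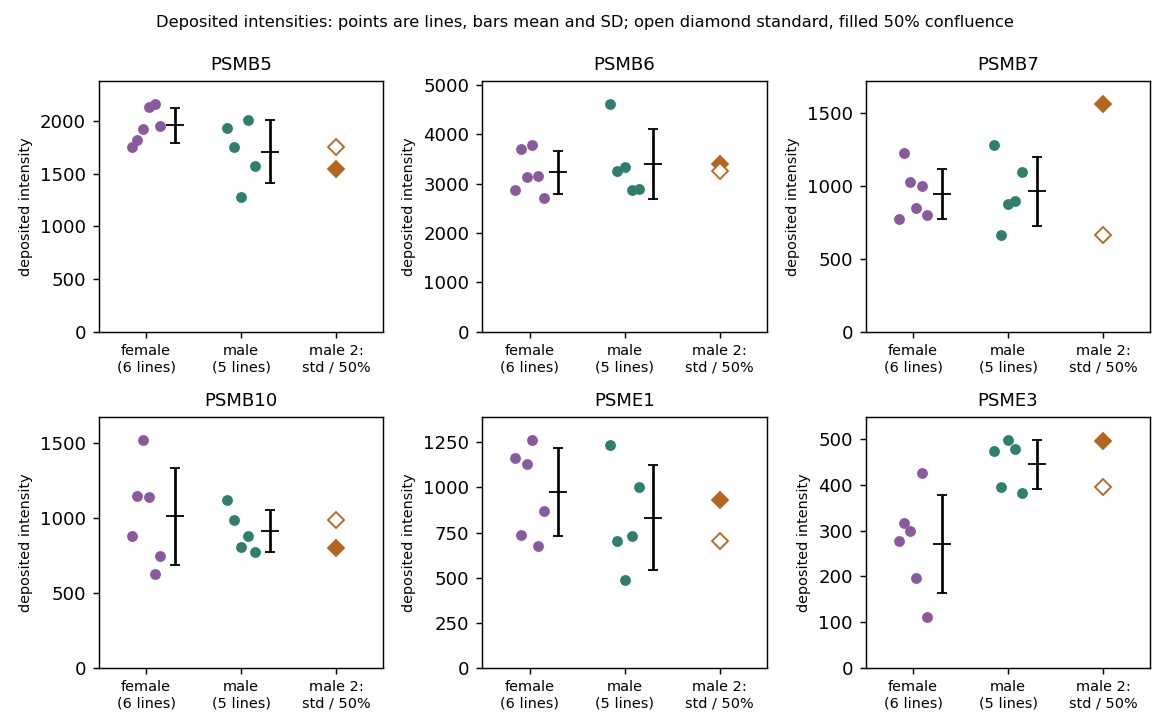
Deposited intensity (vertical axes, linear from 0) of 4 catalytic subunits and 2 activators in the 6 female and 5 male lines, with mean and SD beside each group, and in both cultures of male line 2. PSMB6 runs from 2720 to 4619 over the lines, PSME3 from 111 to 499, and PSMB7 stands at 1566 in the culture at 50% confluence, above every standard line.

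The remaining beta subunits form the structural part of their ring. Highest over lowest line ranged from 1.92-fold for PSMB1 to 2.38-fold for PSMB2 in deposited intensities, with PSMB3 and PSMB4 between. Male 1 was the highest line for each of these 4. PSMB2 had 4201 there, and the other 10 lines had 1765 to 2734.

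Among the alpha subunits, which gate the entry of the barrel, PSMA1 and PSMA2 varied least, with SDs of 0.23 and 0.28. PSMA3 and PSMA4 had SDs of 0.39 and 0.31, both lowest in female 4 and highest in male 1. PSMA5 had 252, 257 and 264 in females 1 and 4 and male 4, and 386 to 562 in the other 8 lines, an SD of 0.48. PSMA7 had the floor of 100 in female 4 and 256 to 463 in the other 10 lines, so its SD of 0.59 rests largely on a value that is only an upper limit.

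The base subunits comprised 5 ATPases and 3 other proteins. Of the ATPases, PSMC2 varied least (SD 0.20, 313 to 434) and PSMC1 most (SD 0.37, 1381 to 3729), with PSMC3, PSMC4 and PSMC6 between. PSMD2 and PSMD1, the large scaffold proteins of the base, had SDs of 0.28 and 0.25. PSMD4, a receptor for ubiquitin chains, had 1435 in male 1 and 697 to 1055 in the other lines.

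The lid held both steady and variable members. PSMD6 had 684 to 985, with an SD of 0.17, and PSMD8 had 2944 to 4705, with 0.21. PSMD12 had 161 in female 4, a median of 344 and 493 in male 5, with an SD of 0.56. PSMD14, the deubiquitinating enzyme of the lid, had 443 in female 4, a median of 842 and 1487 in female 5, with 0.48. PSMD3 and PSMD11 had SDs of 0.29 and 0.37.

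PSMD5, a chaperone in the assembly of the base, had the smallest SD of all 35 genes, 0.17, with 660 in female 3, a median of 759 and 994 in female 5. PSMD9 and PSMD10, the latter also known as the oncoprotein gankyrin, had SDs of 0.27 and 0.29.

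The activators, which open the barrel without the base, differed most from each other. PSME3, which forms a nuclear activator that works without ubiquitin, had the largest SD of the set, 0.66, at percentile 89.1 of all genes tested. It ran from 111 in female 6 through a median of 382 to 499 in male 3. The value of female 6 was next to the floor, and the other lines had 196 to 499. The SD of PSME3 thus rests in large part on that line. PSME1, part of the interferon-inducible activator, had 485 in male 3, a median of 872 and 1264 in female 4, with an SD of 0.44. PSME4 was near the floor, at 100 to 180 with 3 of 11 lines at the floor, and gives little information. PSME2, the partner of PSME1, and PSMA6 were not read, because their 3 probe sets carry a second symbol.

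How far a single probe set tracks its gene over the lines can be read where a gene had a second one. Over the 11 lines the correlation of the probe sets of 1 gene was 0.76 for PSMB4, 0.46 for PSMA4, 0.31 for PSMD8, 0.08 for PSMB7, -0.05 for PSMD9 and -0.22 for PSMA2. The second PSMA2 probe set was at the floor in 6 lines and below the filter. Over 957 genes with at least 2 tested probe sets the median correlation was 0.29. The order of the lines thus depended on the probe set in most of these 6 genes.

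Many members nevertheless tracked each other from line to line, as the plot of centred values shows. The median Pearson correlation over the 11 standard arrays was 0.21 for the 595 pairs of members, against 0.00 over all pairs of genes tested and 0.00 among the other genes of similar brightness. Pairs with a correlation over 0.5 made up 23.9% of the member pairs and 7.15% of all pairs. The median was 0.50 within the beta subunits, 0.37 within the alpha subunits, 0.34 within the base and 0.09 within the lid. These are descriptions of arrays that share a normalization, and no test was made on them. Without male 1 the median over all pairs was 0.14, and with median scaling of the arrays it was 0.43.

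**Figure D3:**
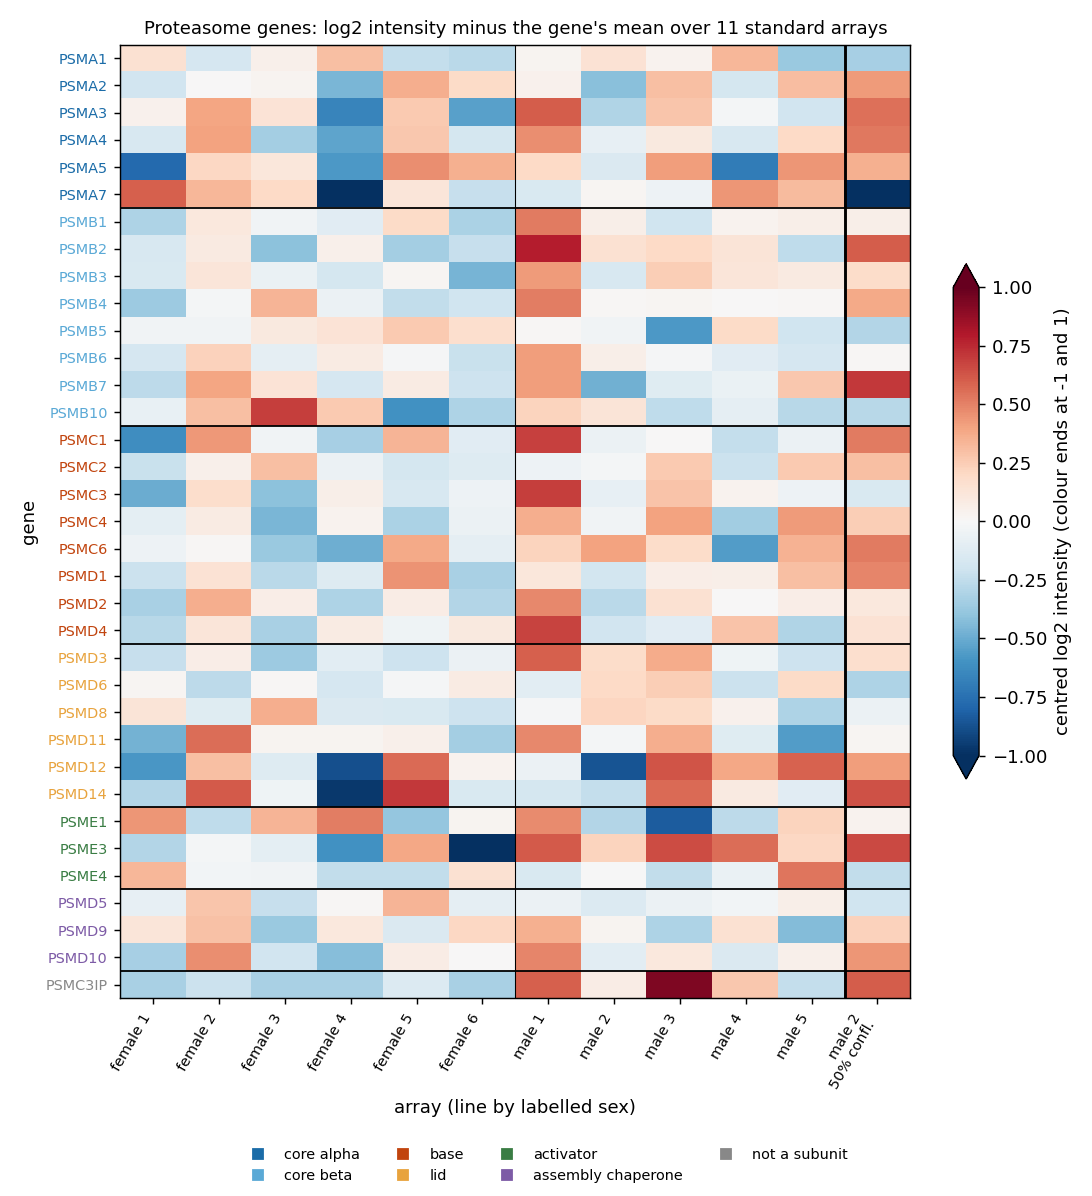
Log2 intensity of each proteasome gene (rows, coloured by class) on each array (columns), minus the gene's mean over the 11 standard arrays; red is above and blue below that mean. The column of male 1 is red for 27 of 35 genes and that of female 1 for 8.

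PSMD2 followed the rest of the set most closely, with a correlation of 0.95 between it and the mean of the other 34 genes. PSMD10 (0.88), PSMB3 (0.88), PSMA4 (0.87), PSMC1 (0.84) and PSMA3 (0.84) came next, and 18 of the 35 genes exceeded 0.5. Correlations below 0 were found for 7 genes, PSMB5 (-0.36), PSME1 (-0.36), PSMA1 (-0.32), PSME4 (-0.29), PSMD6 (-0.14), PSMB10 (-0.06) and PSMD8 (-0.05). PSMA1 ran against its neighbour in the alpha ring PSMA5 (r = -0.83). PSMB2 and PSMD3, of different parts of the complex, had the highest correlation of any pair (0.92).

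Lines could be placed by the share of members above their own mean. Male 1 had 27 of 35 genes above it and was the highest standard line for 15 genes and the lowest for 0. Female 2 had 26 and male 3 had 24. At the other end, female 1 had 8, female 6 had 10 and female 4 had 12, and female 4 was the lowest line for 9 genes. Over all genes tested the share above their own mean lay between 45.8% and 51.5% on each standard array. Ratios of 3' to 5' intensity, a sign of RNA quality, were 1.13 for GAPDH and 0.999 for ACTB in male 1, within the standard ranges of 0.821 to 1.34 and 0.672 to 1.19.

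Classes did not keep step in every line. In male 1 the mean of centred log2 values was 0.41 for the beta subunits, 0.40 for the base, 0.20 for the alpha subunits and 0.12 for the lid. In male 3 the lid led at 0.40 and the beta subunits were at -0.09. In female 4 the alpha subunits were at -0.59 and the lid at -0.37, while the beta subunits were at 0.00. PSMA7 at the floor contributed to that alpha value. In female 6 the activators were at -0.48, through PSME3. The SD of the class mean over the 11 lines was 0.23 for alpha, 0.17 for beta, 0.20 for base, 0.21 for lid, 0.23 for activators and 0.18 for assembly chaperones.

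**Figure D4:**
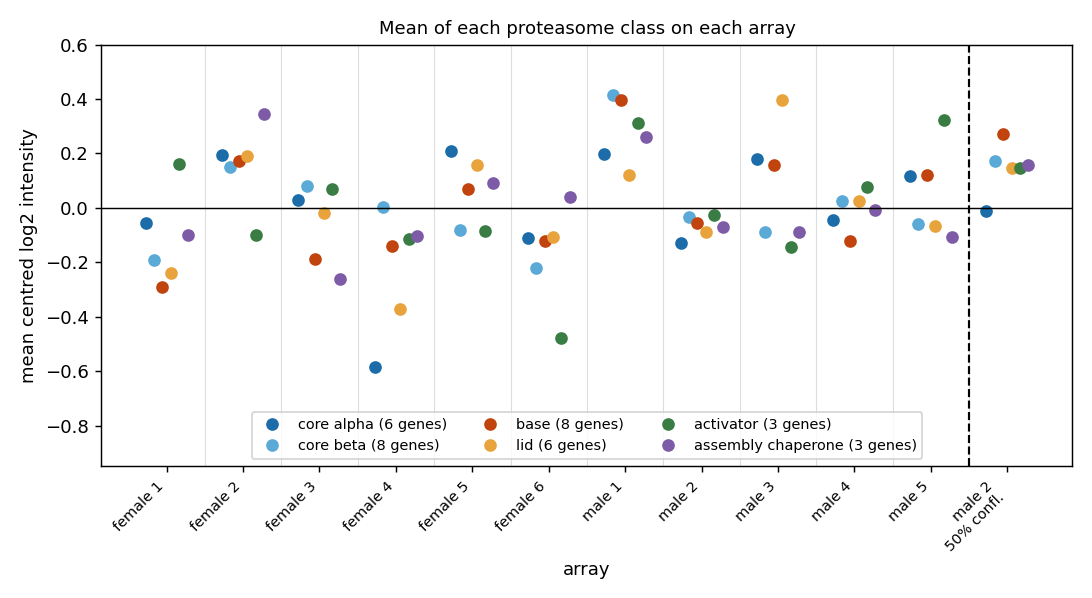
Mean centred log2 intensity (vertical axis) of each class of proteasome genes on each array (horizontal axis); points are class means without error bars, since genes of a class are not replicates. Male 1 has all 6 classes above 0, from 0.12 to 0.41, and female 4 has the alpha subunits at -0.59 beside the beta subunits at 0.00.

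No proteasome gene was called between the sexes in limma's test over all 7541 probe sets (0 of 35 members called at an adjusted p under 0.05, against 0% of all probe sets). At an unadjusted p under 0.05 there were 2 of 35, against 5.26% of all probe sets, which is near the background. Small differences leaned toward the lines labelled male: 30 of 35 genes were higher there, against 48.8% of all probe sets, with a median male minus female difference of 0.13 log2 units against -0.02 over all genes. All 6 alpha, 8 base and 6 lid subunits were among them. Male 1 carried part of this lean, and without it 25 genes were higher, with a median of 0.07. Without female 4 there were 24, and without the line labelled female 3 there were 31.

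PSME3 was nearest to a difference between the sexes among the subunits and activators. It had 474, 395, 499, 479 and 382 in males 1 to 5, and in the female lines 111 at the lowest, 288.5 at the median and 427 at the highest. Every male line but males 2 and 5 lay above every female line. The difference was 0.82 log2 units (SE 0.29, limma adjusted p = 0.89, n = 6 and 5). PSMC3IP, the gene of the set that is no subunit, had 100 to 112 in the female lines and 181, 153, 215, 164 and 108 in males 1 to 5, a difference of 0.60 (SE 0.21, limma adjusted p = 0.89) against values at or next to the floor and on a probe set that may match several transcripts. With a floor of 200 its difference was 0.05.

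Donor age gave a similar picture. In limma's fit with sex as a covariate 0 of 35 members were called, against 0% of all probe sets, and 1 of 35 had an unadjusted p under 0.05, against 5.44%. Slopes were positive for 19 of 35 genes, against 49.5% of all probe sets, with a median of 0.01 log2 units per 10 years. The gene with the unadjusted p under 0.05 was again PSME3, whose level was higher in older donors by 0.36 log2 units per 10 years (SE 0.13, limma adjusted p = 0.85). Its lowest value, 111, was that of female 6, the donor of 2 years, and without that line the slope was 0.11. In adult donors only it was 0.06, and over all 11 standard lines with a floor of 200 it was 0.17. No member had an age slope that was detectably different in males and females (limma interaction, 0 of 35 called and 0 of 35 at an unadjusted p under 0.05, smallest adjusted p = 0.999). Over all 7541 probe sets 0 were called and 282 had an unadjusted p under 0.05, with a smallest adjusted p of 0.209 in limma.

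At 50% confluence most proteasome genes were higher than in the standard culture of the same line. Of the 35 genes, 24 were higher, against 47.8% of all probe sets, and the median difference was 0.32 log2 units (1.25-fold), against 0.00 over all genes tested. By 1.5-fold or more 7 genes were higher (20%), which is near the 18.7% of all probe sets, and 1 was lower, against 18.7%. By 2-fold or more 2 were higher, against 6.96%, and 1 was lower, against 7.24%. Shares past these folds depended on the scaling: with median scaling 24 of 35 genes were higher by 1.5-fold or more (68.6%), against 36.1% of probe sets, and in values as deposited 9 were (25.7%), against 14.4%. In a culture, a change in the share of cells that express a gene and a change per cell cannot be told apart. Each condition had 1 array, so there is no replicate check and no p-value. Fold values are from quantile-normalized intensities, and single intensities are as deposited.

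Base subunits had the largest share of higher genes. All but PSMC3 were higher, 7 of 8, with a median of 0.33, led by PSMD1 (1.59-fold) and PSMC1 (1.49-fold). Their class mean moved from -0.05 in the standard culture to 0.27, where the SD between the 11 lines was 0.20 and male 1 reached 0.40. Of the alpha subunits 4 of 6 were higher, PSMA2, PSMA3, PSMA4 and PSMA5, by 1.42-fold to 1.80-fold. The beta subunits split 5 to 3 and the lid 3 to 3.

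PSMD12 showed the largest difference upward, from 197 in the standard culture to 411 at 50% confluence (2.43-fold). Its standard value was the second lowest of the 11 lines, and 411 lay within their range of 161 to 493. Against the mean of the 11 standard lines its difference was 0.42 log2 units in place of 1.28. PSMB7 went from 665, the lowest of the 11 lines, to 1566, above their highest of 1284 (2.27-fold). Against the mean of the 11 lines its difference was 0.70 log2 units in place of 1.18. Its second probe set had 689 and 1192, within that probe set's standard range of 603 to 1222. PSMD14 went from 755 to 1444 (1.83-fold), within the standard range of 443 to 1487.

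PSMA7 was the 1 gene lower by 1.5-fold or more, with 327 in the standard culture and the floor of 100 at 50% confluence, at least 3.27-fold in deposited intensities. The same floor value was measured in female 4 under standard conditions. PSMD6 followed with 912 and 658 (1.43-fold lower) and PSMA1 with 401 and 252 (1.39-fold lower). With median scaling of the arrays PSMD6 differed by 0.02, the other direction. PSMB5 had 1749 and 1544 and PSMB10 had 988 and 799, while PSMB6 differed little, with 3263 and 3404. Of PSMB5, PSMB6, PSMB7 and PSMB10, PSMB7 was the 1 that was higher by 1.5-fold or more. PSME1 had 704 and 928, and PSME3 395 and 496.

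**Figure D5:**
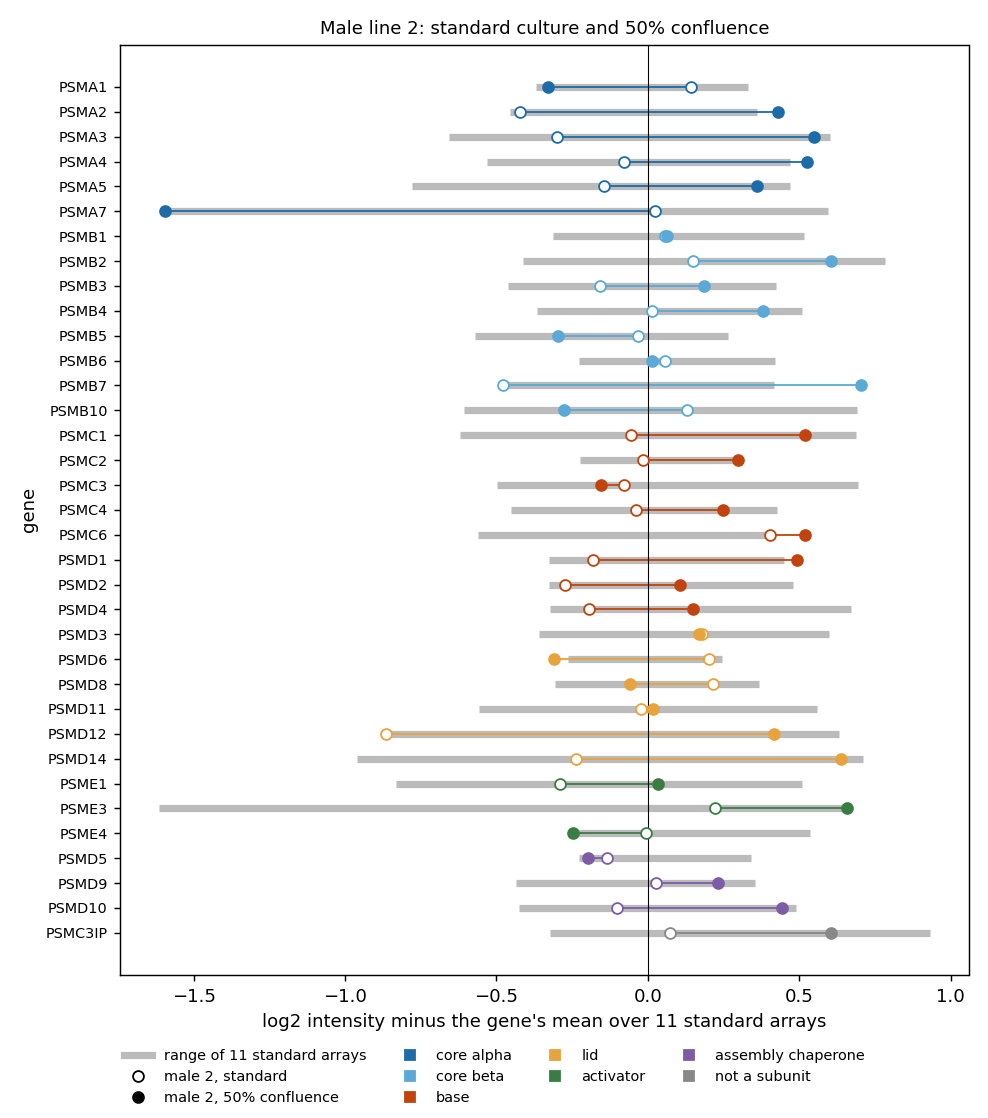
Centred log2 intensity (horizontal axis) of each proteasome gene (rows) in male line 2 in standard culture (open circles) and at 50% confluence (filled circles), over the range of the 11 standard arrays (grey bars). Filled circles lie right of the open ones for 24 of 35 genes, 6 lie beyond the right end of the grey bar, and that of PSMD6 lies beyond the left end.

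Set against the 11 standard lines, the culture at 50% confluence stood above their range for 6 of 35 genes, against 6.59% of all probe sets. These were PSMA2, PSMA4, PSMB7, PSMC6, PSMD1 and PSME3. The second probe sets of PSMA4 and PSMB7 were within their own standard ranges in deposited intensities. They had 731 in a range of 363 to 1073 and 1192 in a range of 603 to 1222. That of PSMA2 was at the floor. It stood below the range for 1 gene, PSMD6, against 4.76%. In deposited intensities 5 genes were above the range, against 5.08% of probe sets, and 2 below it, against 6.18%: PSME3, at 496, was under the 499 of male 3, and PSMA1, at 252, was under the lowest line, 281. Counted against the mean of the 11 lines, 26 of 35 genes were above it, against 51.3% of all genes tested, a share also reached by female 2 and male 1 in standard culture. The other genes of similar brightness were higher than in the standard culture for 55.4%, and the 17 proteasome genes of that range for 70.6%.

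Signal properties differed between the arrays of this pair too. Probe sets at the floor made up 40.1% of the standard array and 49.2% of the other, the ratio of 3' to 5' intensity of GAPDH was 1.30 and 0.990, and the summed intensity of the fibroblast markers was 125905 and 70605. The part of these in the differences was not tested. With median scaling the median of all genes itself moved by 0.46 log2 units, and that of the proteasome genes was 0.77, a difference of 0.31 between them. For PSMD8 the probe sets disagreed in direction (-0.27 and 0.46), and likewise for PSMD9 (0.21 and -0.04) and PSMA2 (0.85 and -0.44), where the second PSMA2 probe set was at 157 and the floor.

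A list of 52 other gene symbols held assembly and associated proteins, regulators, ubiquitin and its activation, delivery of substrates, and interferon-induced antigen processing. SEM1 was entered also under its former symbol, SHFM1. Of the 52 symbols, 30 were on the array and 27 were tested. In limma's tests 0 were called for sex or age, with 0 and 1 of 27 at an unadjusted p under 0.05, against 5.26% and 5.44% of all probe sets. At 50% confluence 15 of the 27 (55.6%) were higher, against 47.8%, and by 1.5-fold or more 6 were higher (22.2%) and 3 lower, against 18.7% each. Without the antigen processing genes, a split made after the values were seen, 12 of 20 were higher, 5 by 1.5-fold or more. By group, 5 of 6 assembly and associated proteins were higher (median 0.54), 2 of 3 of ubiquitin and activation (0.57), 2 of 4 regulators (-0.03), 3 of 7 in delivery (-0.06) and 3 of 7 in antigen processing (0.00). The first group included PSMG1, a chaperone that pairs alpha subunits (214 and 366, 2.02-fold), and SEM1, a small subunit of the lid outside the PSM names (894 and 1874, 1.97-fold, above the standard range of 661 to 1284).

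The transcription factors NFE2L1 and NFE2L2 had differences of -0.27 and 0.05. KEAP1, which directs NFE2L2 to degradation, had 336 and 732 (2.26-fold), above the standard range of 198 to 462. PSMB8 had 156, the lowest of the 11 lines, and 362 (2.83-fold), within their range, on a probe set that may match several transcripts. Against the mean of the 11 lines its difference was 0.15 log2 units. Lower at 50% confluence were SQSTM1, an adaptor that carries ubiquitin-tagged cargo to autophagy (1054 and 571, 1.90-fold), IRF1, a transcription factor of the interferon response (337 and 173, 1.62-fold), and NSFL1C, a cofactor of the segregase VCP (294 and 159, 1.52-fold). Against the mean of the 11 lines the differences of these 3 were -0.20, -0.06 and -0.29 log2 units. IRF1 also had the 1 unadjusted p under 0.05 for age, at 0.55 log2 units per decade of age (SE 0.15, limma adjusted p = 0.83). It was at the floor of 100 in female 6 and male 5, the donors of 2 and 3 years, so this slope rests in part on values that are only upper limits, and in adult donors it was 0.44 (SE 0.33).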

How the data were processed

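Values were the authors' deposited intensities, whole numbers on a linear scale with a floor of 100, for 12625 probe sets on each of 12 arrays. Neither the summarising software nor the scaling nor the origin of the floor is given in the sources used here. Intensities were taken to log2 and quantile normalized over all arrays. Probe sets with a mean log2 over the 11 standard arrays above the 40th percentile were tested (7541 probe sets, 5486 genes), without 67 control probe sets. Differences between labelled sexes and slopes per 10 years of age, with sex as covariate, were fitted with limma 3.58.1 in R 4.3.3 (lmFit, eBayes, Benjamini-Hochberg over all probe sets, threshold 0.05). Only the fits for sex and age were tested on simulated data. Those log2 values were drawn independently for each probe set, so the floor and the normalization were not covered. The number of arrays limits the precision, and each standard array is another animal. Classes were assigned from textbook composition. RefSeq's gorilla genes (assembly NHGRI_mGorGor1-v2.1), used for names only, held all 35 symbols. Genes with single values are the catalytic subunits, PSME1, the 3 largest differences per direction at 50% confluence, the 3 largest and the smallest SD among genes above the floor in all lines, and the 3 largest differences of the other list; further genes were chosen after their values were seen. Members and lists were chosen with earlier results of these data known.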

Additional observations from a re-analysis of the deposited data

Results flagged for a closer look

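Each group of labelled sex was searched for a line far from the others, in 35 genes and 6 class means, 82 sets of values in all, of which 5 stood out. Chance alone picks about 1 in 20 such sets. Male 1 was the line concerned in 4 of the 5. The ratio given is the gap to the nearest line over the whole range of the group, in quantile-normalized log2 values. Single intensities are as deposited and do not give the same ratio. PSMB4 in male 1 had an intensity of 3888, against 2528 to 2694 in the other male lines (ratio 0.983). PSMC1 in male 1 had 3729, against 1792 to 2196 (ratio 0.737). The mean of the beta subunits in male 1 was 0.41 centred log2 units, against -0.09 to 0.03 (ratio 0.772). PSMB4 is 1 of these subunits, so its set and this mean overlap. The mean of the assembly chaperones in male 1 was 0.26, against -0.11 to -0.01 (ratio 0.726). PSMC6, an ATPase of the base, went the other way in male 4, with 279 against 436 to 526 in the other male lines (ratio 0.774).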

How the results depend on the processing

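The alternatives run called no member for sex or age. For differences at 50% confluence the alternatives were values as deposited, median scaling, a floor of 200 and the mean of the 11 lines as reference. Across these the 8 proteasome genes that differed by 1.5-fold or more kept their direction. So did the 7 such genes named from the other list, and UBQLN2 of the same list. UBE2N, also of that list, did not: its difference was 0.64 log2 units in the main analysis and -0.02 against the mean of the 11 lines. Apart from the 2 cultures of male line 2, the labels link no arrays. That pair had 1 array per condition, so no paired test was possible. For sex, median scaling called 2 probe sets, none a member, and the filter at the 60th percentile left 1 member at an unadjusted p under 0.05. With each line left out, probe sets called ran from 0 to 1 (1 without the line labelled female 3) and members at an unadjusted p under 0.05 from 2 to 4 (4 without male 5). For age, members at an unadjusted p under 0.05 were 3 with no filter and 0 in adult donors, and 0 to 2 with a line left out (0 without female 6, 2 without female 5). Shares of all probe sets at that p were not taken in these settings, so these counts have no background beside them. At 50% confluence median scaling gave 24 genes higher by 1.5-fold or more, against 36.1% of probe sets, and a median of 0.77. Values as deposited gave 2 of 35 genes lower by as much, against 25.3% of probe sets. Class means there were 0.29 for alpha, 0.52 for beta, 0.59 for base, 0.47 for lid, 0.44 for activators and 0.49 for assembly chaperones with median scaling, in place of -0.01, 0.17, 0.27, 0.15, 0.15 and 0.16. The median SD of the members was 0.30 on values as deposited, 0.37 with median scaling and 0.26 to 0.30 with a line left out. Members with an SD below the median of all genes numbered 28 of 35 in the main analysis and 27 to 30 with a line left out. They numbered 23 with median scaling, 21 with no filter and 20 of 34 with a floor of 200. In the main analysis without PSMC3IP, 28 of 34 genes had an SD below that median. Of the same 34 genes, 29 were higher in males and 23 were higher at 50% confluence. The median correlation was 0.43 with median scaling and 0.14 to 0.27 with a line left out. Values at the floor, such as PSMA7 in female 4, PSMC3IP and PSME4, limit what those genes show. The probe sets of PSMC6, PSMD6, PSMD11 and IRF1, like those of PSMC3IP and PSMB8, may match several transcripts.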
